A study of Macaca mulatta with 30 samples.

Results

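Libraries numbered 1 to 8, 8 of the 30 RNA libraries made from cortical area 32 of rhesus macaques, were set against the 22 libraries numbered 9 to 32. The 8 were chosen by the number in the sample title alone, and numbers 21 and 26 are not among the libraries. Each library came from 1 male animal that had drunk ethanol, so each p-value measures spread between animals. Area 32 is a part of the medial prefrontal cortex, and the study related its RNA to how much the animals drank. What the library numbers stand for in the laboratory is not stated, so they are treated here as numbers and not as a named batch.

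All animals in both groups had been induced to drink ethanol and then drank it by choice under open access for over a year, and no alcohol-naive animals are in either group. Libraries 1 to 8 came from 4 heavy, 2 very heavy, 1 binge and 1 low drinker, and libraries 9 to 32 from 3 heavy, 4 very heavy, 6 binge and 9 low drinkers. By cohort, libraries 1 to 8 held 3 animals of cohort 5, 3 of cohort 7a and 2 of cohort 7b, against 5, 5 and 3 of these cohorts and 9 animals of cohort 4 in libraries 9 to 32. Ages at the start of induction were 4.18 to 5.69 years in libraries 1 to 8 and 4.18 to 8.24 years in libraries 9 to 32. Drinking category and cohort were therefore kept as terms in each model, but cohort 4 has no animal in the first group.

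The deposited values covered 15521 genes and 156345 exons, in reads scaled to a common upper quartile. Recovered whole reads per library, in units of 1e6, numbered 5.51 to 11.1 in libraries 1 to 8 (median 7.42) and 4.39 to 13.99 in libraries 9 to 32 (median 9.88). On the first principal component of the genes, which held 12.9% of the variance, library 15 lay farthest from the others. Marker genes were looked up in the deposited values. These held 11 of 14 excitatory neuron markers, 14 of 15 inhibitory neuron markers, 12 of 12 astrocyte markers and 12 of 12 oligodendrocyte markers. All of those held were high enough to be tested, which by itself does not identify the tissue. The vesicular glutamate transporter gene SLC17A7 was not analysed here.

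The libraries were made from total RNA after removal of ribosomal RNA, with a kit that keeps the strand. Such a library holds reads from mature messenger RNA, from introns of unfinished transcripts and from non-polyadenylated RNA. Ribosomal protein messenger RNAs are short and abundant and usually begin with a very short first exon. Many small nucleolar RNAs, which guide chemical changes of ribosomal RNA, lie inside introns of such genes.

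Of 12935 genes with a value of at least 10 in at least 6 libraries, 2010 differed between the groups at an adjusted p under 0.05 in limma, which is 15.5% of those tested. In libraries 1 to 8, 823 genes (6.36%) were higher and 1187 (9.18%) were lower. Most differences were small: the median size among the called genes was 0.28 on the log2 scale, 184 exceeded 0.5 and 12 exceeded 1. The median difference of all tested genes was 0.01. In 30 genes (0.232% of those tested) all 8 libraries lay above all 22 others, and in 40 genes (0.309%) all 8 lay below. The count was 3462 with depth as a further term and 3393 without the category and cohort terms. Against libraries 9 to 16, 17 to 24 or 25 to 32 alone it was 642, 1336 or 350, with 8, 7 and 7 libraries in these sets.

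The gene with the smallest p was TMEM107, which encodes a membrane protein of the transition zone of the primary cilium. It had a lowest value of 430.4, a median of 626 and a highest value of 735 normalized reads in libraries 1 to 8, against 142, 194 and 234 in libraries 9 to 32. The groups did not overlap, and the log2 difference was 1.58 ± 0.10 (SE), or 2.99-fold (limma adjusted p = 3.5e-12). POLA2, the second subunit of DNA polymerase alpha-primase, had a lowest value of 176, a median of 214 and a highest of 259 in libraries 1 to 8, against 55.4, 92.7 and 141 in libraries 9 to 32. Its groups did not overlap either, and the difference was 1.30 ± 0.14 (adjusted p = 2.0e-06).

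RPL41, which encodes a very small protein of the large ribosomal subunit, followed. Its values ran from 616 over a median of 736 to 797 normalized reads in libraries 1 to 8, against 260.0, 405 and 571 in libraries 9 to 32, with no overlap and a log2 difference of 0.82 ± 0.11. The other genes among the 10 with the smallest p that were higher in libraries 1 to 8 differed less. VAMP4, a SNARE protein of the trans-Golgi network, rose by 0.56 ± 0.07, with 189 to 266 normalized reads in libraries 1 to 8 and 119.8 to 182 in libraries 9 to 32. FBXO11, a substrate adaptor of a ubiquitin ligase, rose by 0.31 ± 0.04, MLLT11 by 0.33 ± 0.05 and the nuclear RNA-binding protein gene HNRNPU by 0.24 ± 0.04, each with groups that did not overlap. KIAA1598, which encodes shootin-1 of growing axons, rose by 0.46 ± 0.06, the ribosomal protein gene RPS25 by 0.59 ± 0.08 and the initiation factor gene EIF3J by 0.38 ± 0.06, and in these the highest libraries of 9 to 32 reached into the range of libraries 1 to 8. RPS25 shares exon positions with CCDC84, so its reads may in part be those of that gene.

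Among genes lower in libraries 1 to 8, SGSM3, a modulator of small G protein signalling, had the smallest p. It had a lowest value of 849, a median of 934 and a highest of 1145 normalized reads in libraries 1 to 8, against 1185, 1349 and 1642 in libraries 9 to 32. The groups did not overlap, and the log2 difference was -0.53 ± 0.05 (adjusted p = 5.3e-07). PEF1, a penta-EF-hand calcium-binding protein, had 228, 255 and 289 in libraries 1 to 8 against 314, 375 and 507 in libraries 9 to 32, a difference of -0.64 ± 0.08 without overlap. RABAC1, which binds prenylated Rab proteins, had 266, 298 and 386 in libraries 1 to 8 against 337, 419 and 518 in libraries 9 to 32, a difference of -0.55 ± 0.07 with overlap. The deubiquitinase gene USP19 (-0.33 ± 0.04), ZBTB47 (-0.34 ± 0.04), DEF8 (-0.46 ± 0.06), RUSC2 (-0.37 ± 0.04) and LRRC14 (-0.67 ± 0.08) were lower with no overlap. PSD, an exchange factor for ARF6 (-0.44 ± 0.06), and FKBP8, a prolyl isomerase of the outer mitochondrial membrane (-0.41 ± 0.05), were lower with overlapping ranges. RUSC2 shares exon positions with FAM166B, and LRRC14 with LRRC24.

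**Figure D1:**
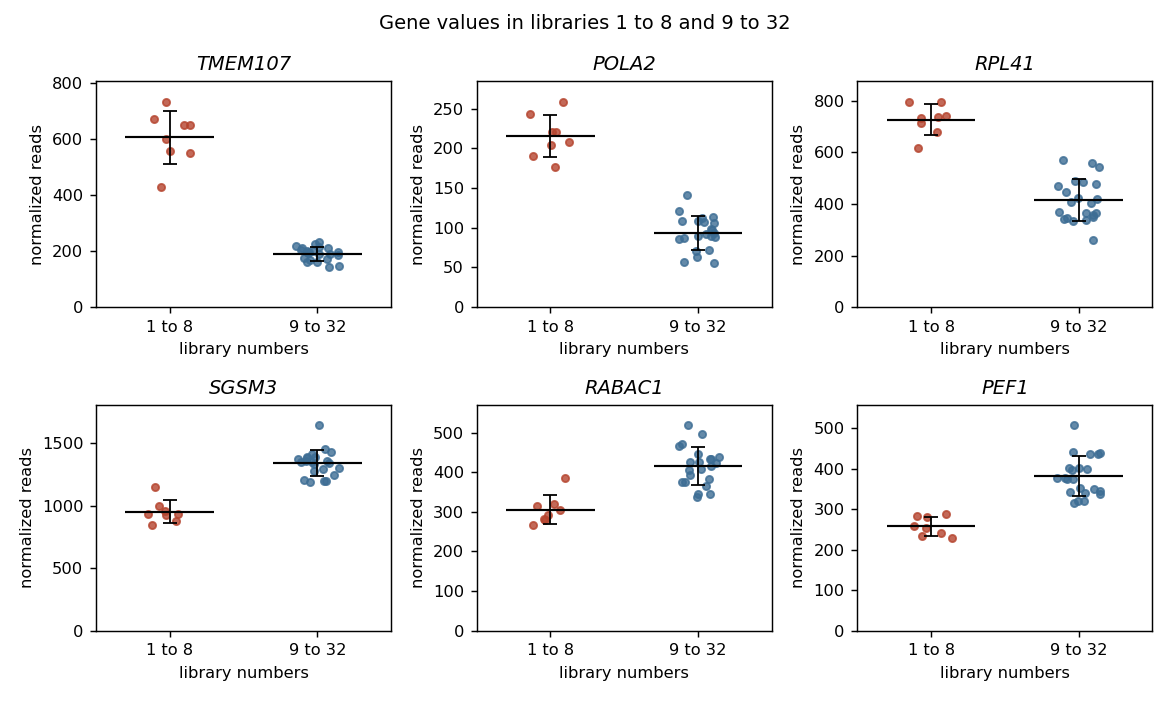
Normalized reads of 6 genes (vertical axis, from 0) in libraries 1 to 8 (left) and 9 to 32 (right). Each point is a library, the horizontal line is the group mean and the bar is 1 SD. TMEM107, POLA2 and RPL41 have all 8 libraries above all 22 others, SGSM3 and PEF1 have all 8 below, and RABAC1 overlaps.

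Gene length separated the directions. Span was taken as the distance from a gene's first to its last exon base. Over all tested genes, 6.36% were higher and 9.18% lower. Of 1662 tested genes with a span under 5 kb, 62 were higher in libraries 1 to 8 and 238 lower (3.73% and 14.3%), with a median log2 difference of -0.10, and of 3783 genes of 5 to 20 kb, 149 were higher and 576 lower. Genes of 20 to 50 kb were balanced, with 243 higher and 249 lower of 3315. Above that the order turned: 166 higher and 75 lower of 1987 genes of 50 to 100 kb, 130 and 37 of 1350 genes of 100 to 200 kb, and 73 and 12 of 838 genes of 200 kb or more, whose median difference was 0.06. The medians of the shortest and the longest class kept their signs with each alternative setting of the gene model that was run.

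Over the 12935 genes, the Spearman correlation of the difference with span was 0.26, with the share of the span that is intron 0.24, with exonic length 0.15, with mean level 0.11 and with exon number 0.015. These describe genes measured in the same libraries, which are not independent replicates. By exonic length, 57 genes were higher (11.0%) and 12 lower (2.32%) of 517 genes of 8 kb or more, among them the cohesin loader NIPBL (0.26 ± 0.05). Of 3024 genes of 1 to 2 kb, 132 were higher (4.37%) and 379 lower (12.5%), against 6.36% and 9.18% of all genes. Long-span genes that rose included EHBP1, an actin-linked adaptor of endocytosis (0.26 ± 0.05, 1849.9 to 2044 normalized reads in libraries 1 to 8 and 1472 to 1820.1 in libraries 9 to 32), and ARL15, a small GTPase (0.50 ± 0.10).

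Within 1 library, the median of genes of 200 kb or more minus the median of genes under 5 kb, each as the deviation from the mean of all libraries, ran from -0.020 to 0.15 on the log2 scale in libraries 1 to 8 (median 0.090). It ran from -0.15 to 0.061 in libraries 9 to 32 (median -0.039), so the ranges overlapped. In libraries 9 to 16 the median was -0.072, in 17 to 24 it was -0.028 and in 25 to 32 it was 0.025. The last of these sets thus lay closest to libraries 1 to 8 in this measure.

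**Figure D2:**
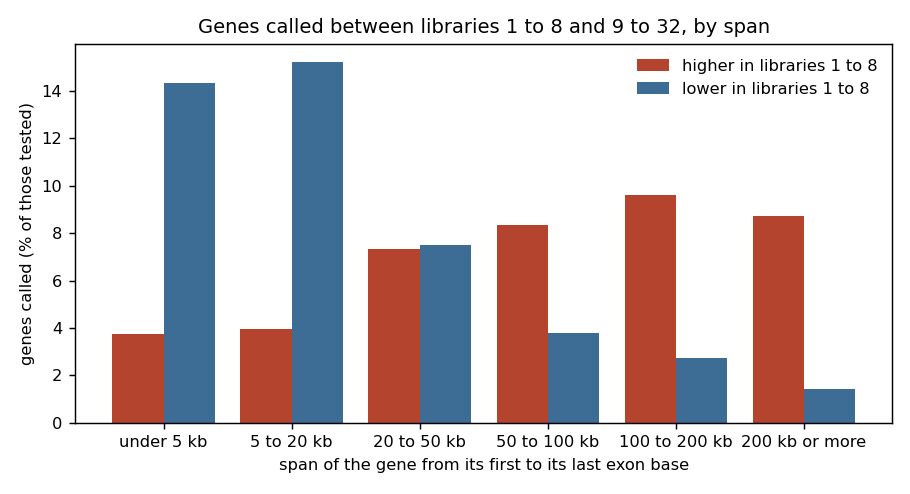
Share of tested genes called at an adjusted p under 0.05 (vertical axis, percent) by the span of the gene (horizontal axis), with genes higher in libraries 1 to 8 left of genes lower in libraries 1 to 8 in each pair of bars. The share of higher genes is 3.73% under 5 kb and 8.71% at 200 kb or more, and the share of lower genes is 14.3% and 1.43% in these classes.

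The shares of called genes also differed between some chromosomes, beside 6.36% higher and 9.18% lower over all genes. Chromosome numbers are those in the exon names, which number chromosomes differently from the RefSeq macaque assembly; their build is not given in the sources used here. On chromosome 19, 13 genes were higher and 150 lower of 833 tested (median -0.11), and on chromosome 16, 22 were higher and 105 lower of 543. On chromosome 13, 21 were higher (8.75%) and 2 lower (0.833%) of 240 (median 0.08), and on chromosome 4, 39 were higher (7.89%) and 8 lower (1.62%) of 494. These were picked as uneven after values were seen. Others lay near the shares of all genes, such as chromosome 1 (6.98% higher, 8.73% lower) and chromosome 7 (7.10% higher, 8.10% lower). Gene span was not taken into account in these counts.

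Of 496 tested single-exon genes, 14 were higher and 33 lower, a median of -0.03, against 6.36% higher and 9.18% lower over all genes. NAP1L1, a histone chaperone gene annotated with 1 exon here, rose by 0.38 ± 0.06, with 787 to 986 normalized reads in libraries 1 to 8 and 601 to 788 in libraries 9 to 32. CORO7, of the coronin family, fell by 0.63 on the log2 scale, with 20.8 to 57.0 in libraries 1 to 8 and 49.8 to 86.7 in libraries 9 to 32. Replication-dependent histone genes, whose messenger RNAs lack a poly(A) tail, had 3 of 39 tested genes lower (HIST1H2AC, HIST3H2A and HIST2H2AA4) and none higher by limma, with 8 lower and 0 higher at an unadjusted p under 0.05. edgeR called 4 lower and none higher. The share lower by limma, 7.69%, lay near that of all genes. Of 9 tested replacement histone genes, only H1F0, which is polyadenylated, was called, with a rise of 0.45 ± 0.12. Its mean log2 value was 8.59 in libraries 1 to 8, 8.53 in 9 to 16, 8.08 in 17 to 24 and 8.11 in 25 to 32. Of the 9 genes, 5 lay above 0, while H3F3B (-0.18 ± 0.09) and H2AFX (-0.17 ± 0.11) lay below 0.

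Of 44 tested snoRNA host genes that do not encode ribosomal proteins, 6 were higher (13.6%) and 4 lower (9.09%), against 6.36% and 9.18% of all genes. Their median was 0.01, against 0.01 for all genes. Nucleolin (NCL), the abundant nucleolar RNA-binding protein, rose by 0.33 ± 0.05, with 2265 to 2811 normalized reads in libraries 1 to 8 and 1823 to 2518 in libraries 9 to 32. Elongation factor 2 (EEF2) had 10933 to 12528 in libraries 1 to 8 and 11643 to 15439 in libraries 9 to 32, a difference of -0.24 ± 0.04, and GNB2L1, the ribosome-bound scaffold RACK1, differed by -0.28 ± 0.05. Of 40 miRNA host genes, 3 were higher (7.5%) and 5 lower (12.5%), shares near those of all genes. Among the lower ones was EGFL7, the endothelial host of miR-126 (-0.44 ± 0.08).

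A wider class was taken from the RefSeq gene table, as genes whose span contains a small RNA gene. Of 343 tested genes that hold a snoRNA gene, 40 were higher (11.7%) and 17 lower (4.96%), against 6.36% and 9.18% of all genes. Of 481 that hold a snRNA gene, 54 were higher (11.2%) and 21 lower (4.37%), and of 201 that hold a miRNA gene, 20 were higher (9.95%) and 23 lower (11.4%). The genes that hold a snRNA gene took 6.15 to 6.28% of the signal of a library in libraries 1 to 8 (median 6.22%) and 5.91 to 6.14% in libraries 9 to 32 (median 6.01%), without overlap. Span was not taken into account in these counts.

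Cytosolic ribosomal protein genes moved in both directions. Of 76 tested, 13 were higher (17.1%) and 8 lower (10.5%), against 6.36% and 9.18% of all genes, and the median was 0.02. Beside RPL41 and RPS25, RPS29 rose by 0.60 ± 0.10 (393 to 531 normalized reads in libraries 1 to 8 and 187 to 447 in libraries 9 to 32) and RPL29 by 0.72 ± 0.13 (200.4 to 278 in libraries 1 to 8 and 98.1 to 217 in libraries 9 to 32). Their summed signal was 0.963 to 1.16% of a library in libraries 1 to 8 and 0.930 to 1.24% in libraries 9 to 32. These genes have many processed copies in primate genomes, and how reads that fit several places were counted is not given in the sources used here. Mitochondrial ribosomal protein genes had 1 higher and 7 lower of 68.

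The counts of other groups stand beside 6.36% of all genes higher and 9.18% lower, with no test between a group and all genes. Proteasome subunit genes had 9 higher and 4 lower of 36, with PSMD12 at 875 to 1154 normalized reads in libraries 1 to 8 and 656 to 843 in libraries 9 to 32 (0.38 ± 0.06). Splicing factor and nuclear speckle genes had 10 higher and 2 lower of 51, with a median of 0.09, led by HNRNPU and HNRNPD (0.54 ± 0.09). Nuclear genes of oxidative phosphorylation had 8 higher and 12 lower of 68, with CYC1, the cytochrome c1 of complex III, at -0.40 ± 0.06 and NDUFV1 of complex I at -0.41 ± 0.06. Numbered zinc finger genes had 23 higher (6.27%) and 9 lower (2.45%) of 367 (median 0.07), a share of higher genes near that of all genes. The list of translation factors, which also held NAP1L1, had 3 higher and 2 lower of 16, heat shock and chaperone genes 3 higher and 0 lower of 26 by limma (4 and 2 at an unadjusted p under 0.05, 3 and 0 by edgeR), and immediate early genes 1 and 1 of 41. Presynaptic genes had 1 higher and 3 lower of 24, and postsynaptic genes 3 higher and 2 lower of 22.

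Marker genes of the cell types in the tissue were counted against the same 6.36% of all genes higher and 9.18% lower. Of 14 microglia and macrophage markers, 4 were lower and none higher by limma (5 lower and 1 higher at an unadjusted p under 0.05, and 4 lower by edgeR), with a median of -0.26. CD163, a scavenger receptor of perivascular macrophages, had 107, 147 and 192 normalized reads in libraries 1 to 8 against 118, 204 and 269 in libraries 9 to 32 (-0.63 ± 0.13). The complement genes C1QB (-0.54 ± 0.14) and C1QC (-0.46 ± 0.13) and the receptor gene CSF1R (-0.28 ± 0.08) were the others, and all 4 had overlapping ranges. The summed level of the 14 markers was 0.0205 to 0.0284% of the signal in libraries 1 to 8 and 0.0229 to 0.0334% in libraries 9 to 32.

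Of 12 astrocyte markers, 3 were lower, FGFR3 (-0.48 ± 0.07), ALDH1L1 (-0.37 ± 0.08) and GLUL. Among the 12, 5 lay above 0, and the median was -0.05, with -0.11 to 0.02 over the alternative settings. At an unadjusted p under 0.05 by limma, 1 was higher and 3 lower. Of 15 mural and fibroblast markers 2 were lower, the collagen gene COL1A2 (-1.04 ± 0.29) and SLC6A13, and 6 of the 15 lay above 0 (median -0.25). Of 10 endothelial markers the glucose transporter gene SLC2A1 was lower. The endothelial (10.0%) and mural and fibroblast (13.3%) shares lay near the share of all genes called lower. By limma none of the 11 excitatory neuron, 14 inhibitory neuron, 12 oligodendrocyte or 7 precursor markers was called, and edgeR called none of them; at an unadjusted p under 0.05 the counts in either direction were 2, 2, 1 and 0. In bulk tissue, fewer cells of a type and less RNA per cell cannot be told apart. The part of cell makeup in the other differences was not tested.

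Exons were compared next. Of 106212 exons tested, 9546 differed in level (8.99%), 3207 higher (3.02%) and 6339 lower (5.97%) in libraries 1 to 8. Exon usage, the log2 value of an exon minus that of the rest of its gene, removes what the whole gene does. Of 105113 exons tested for usage, 4182 differed (3.98%), 2143 higher (2.04%) and 2039 lower (1.94%), in 2551 genes. Leaving out library 4 or library 8 lowered the usage count to 2622 or 2492, and leaving out library 8 lowered the count of exon levels to 6344.

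Exons at the short end of a gene had the largest share called higher in usage, while inner exons held the largest number. The exon names give no strand, so each gene with several exons was described by its outer exons, the shorter of its first and last exon by position and the longer one. In most mammalian genes the last exon, which carries the 3′ untranslated region, is the longer. Of 6265 shorter outer exons tested, out of 14587 such genes, usage was higher in libraries 1 to 8 for 674 and lower for 101, with a median of 0.15. Of 10684 longer outer exons, 158 were higher and 303 lower (median -0.02), and of 88164 inner exons, 1311 were higher and 1635 lower (median -0.01).

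The 33 shorter outer exons called higher in which all of libraries 9 to 32 lay below the value of 10 passed the filter through libraries 1 to 8 alone. Exons with 10 or more in fewer than 6 of libraries 9 to 32 also needed libraries 1 to 8 to pass, and these were not counted. The filters below do not remove this selection, as high values in libraries 1 to 8 also lift a mean. With a filter on the mean of all libraries instead, chosen after seeing the data, 572 were higher and 101 lower of 5070. With a filter of 30 in 6 libraries, 397 were higher and 123 lower of 2860, and with depth as a further term, 419 were higher and 141 lower of 6265. The longer outer exon of the same gene was tested for 671 of the 674, and was higher in 10 and lower in 118. The rest of the gene, against which it was measured, holds the shorter outer exon chosen as higher. Lower usage of the longer one is therefore in part built in.

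The share called higher fell with exon length. Of 141 shorter outer exons under 50 bases, 44 were higher (31.2%) and 2 lower (median 0.51), and of 560 exons of 50 to 100 bases, 152 (27.1%) and 6 (median 0.44). It was 193 and 6 of 965 exons of 100 to 150 bases, 118 and 8 of 990 exons of 150 to 200, 86 and 20 of 1339 exons of 200 to 300, and 5 and 8 of 185 exons of 1000 bases or more. Inner exons under 50 bases showed 86 higher and 37 lower of 2633, with a median of 0.03. Counted along the exons from the free end of the shorter outer exon, the median usage difference was 0.46 for exons whose middle lay within 50 bases, 0.28 from 50 to 100, 0.16 from 100 to 150, 0.10 from 150 to 200 and 0.01 from 300 to 400 bases.

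**Figure D3:**
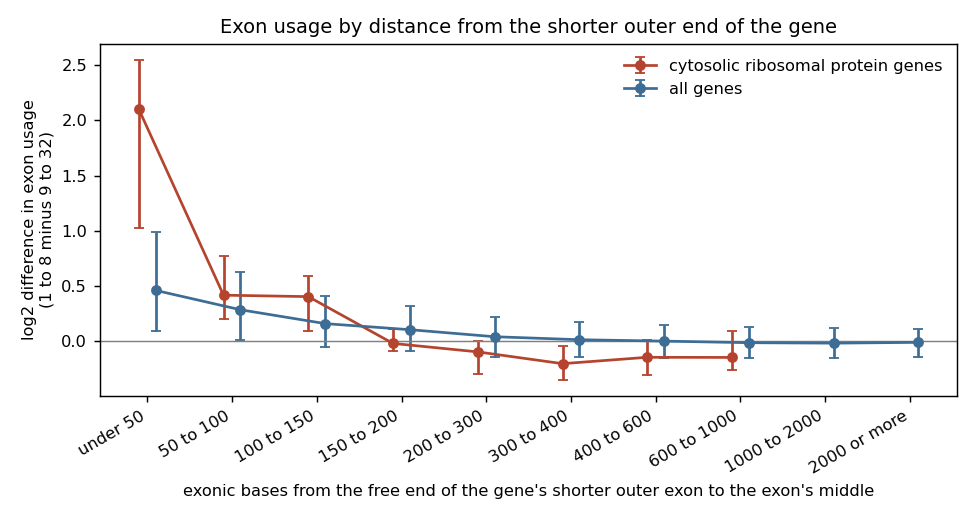
Exon usage difference, libraries 1 to 8 minus 9 to 32 on the log2 scale (vertical axis), by the number of exonic bases from the free end of the gene's shorter outer exon to the middle of the exon (horizontal axis). Points are medians over exons and bars the middle 50% of exons, for ribosomal protein genes and all genes, where a class has at least 20 exons. Within 50 bases the median is 2.10 for ribosomal protein genes and 0.46 for all genes.

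GAPDH, the glycolytic enzyme often used as a reference gene, showed the pattern along its 9 exons. Its exon 1 (chromosome 12, 6755426 to 6755577, 152 bases) had a lowest value of 207, a median of 309.7 and a highest of 391 normalized reads in libraries 1 to 8, against 19.6, 39.7 and 73.3 in libraries 9 to 32. All 8 libraries lay above the 22 others, and the log2 difference was 2.85 ± 0.21 (limma adjusted p = 1.5e-10). Exon 2, of 46 bases, had 646 to 1000.3 in libraries 1 to 8 and 198 to 535 in libraries 9 to 32, a difference of 1.28 ± 0.13. Exon 3 rose by 0.22 ± 0.07, and exons 4 to 9 fell by 0.20 to 0.39. GAPDH, like EEF1A1 and the ribosomal protein genes, has near-identical processed copies, so its counts are uncertain where reads could be shared.

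EIF4A2, a helicase of translation initiation that hosts snoRNA genes, had exon 1 (chromosome 3, 12980911 to 12980978, 68 bases) at 200.3, 269 and 310.4 normalized reads in libraries 1 to 8 against 18.8, 31.9 and 71.6 in libraries 9 to 32. The difference was 2.78 ± 0.14 without overlap. Its exon 2, of 46 bases, had 255 to 361 in libraries 1 to 8 and 42.7 to 132 in libraries 9 to 32 (2.02 ± 0.13). The remaining 9 exons were between -0.18 and 0.22 and did not pass the test.

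**Figure D4:**
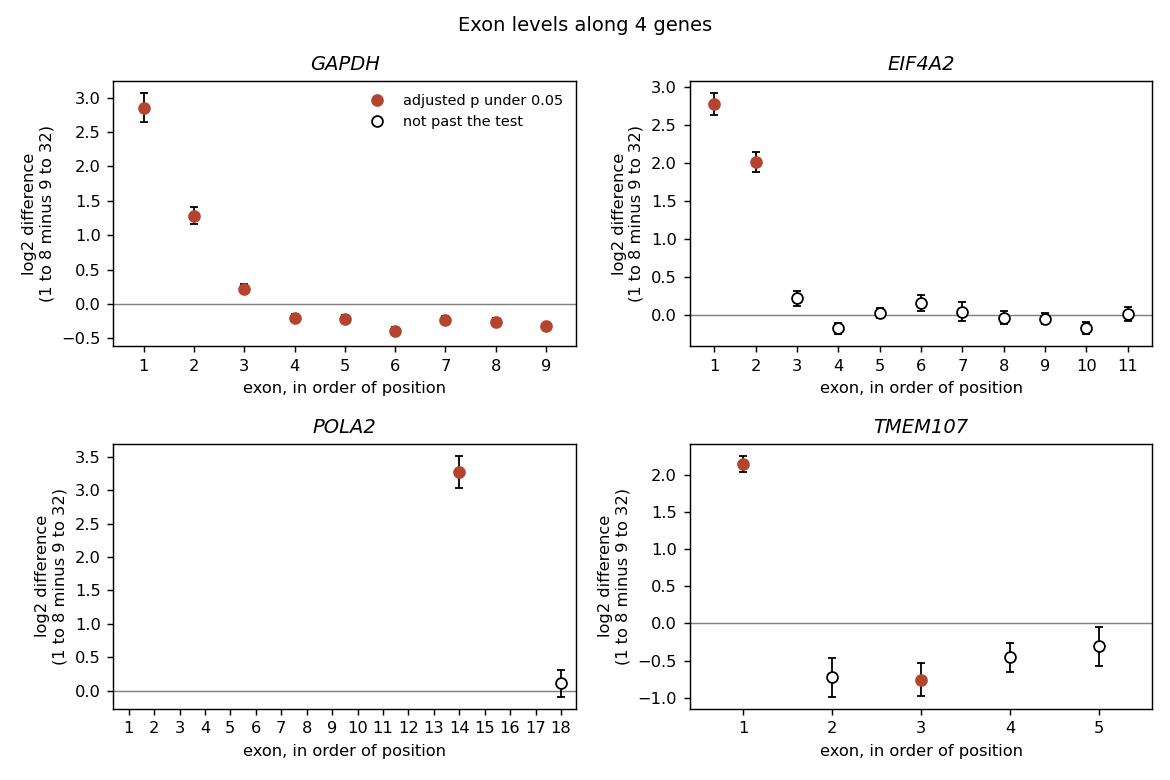
Log2 difference in exon level, libraries 1 to 8 minus 9 to 32, with SE (vertical axis), for the tested exons of 4 genes in order of position (horizontal axis). Filled points passed the test. GAPDH and EIF4A2 are high in exons 1 and 2, POLA2 in exon 14 and TMEM107 in exon 1.

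Ribosomal protein genes showed a larger share than the other lists named here, without a test between lists. Of 66 tested shorter outer exons of these genes, 46 were higher in usage in libraries 1 to 8 and 3 lower, with a median of 1.48, against 674 and 101 of 6265 over all genes. Exons of these genes within 50 bases of the free end were higher in 40 of 48 and lower in 2, and from 300 to 400 bases they were higher in 3 and lower in 16 of 49. The latter were measured against a rest of the gene that holds the exons near the free end. RPL37A had its exon of 28 bases (chromosome 2b, 104655580 to 104655607) at 128, 164 and 192 normalized reads in libraries 1 to 8 against 8.55, 18.6 and 50.1 in libraries 9 to 32. RPS18 had its exon of 48 bases (chromosome 6, 34018197 to 34018244) at 102, 113 and 128 in libraries 1 to 8 against 11.0, 19.8 and 33.1 in libraries 9 to 32. In both, the groups lay apart, with exon level differences of 2.83 ± 0.21 and 2.56 ± 0.19.

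RPL26 and RPL41 were chosen after their values were seen. RPL26 had its outer exon of 46 bases at 60.1 to 105 normalized reads in libraries 1 to 8 and 0.782 to 19.7 in libraries 9 to 32, while its other 3 exons lay between -0.24 and 0.23 and did not pass the test. In RPL41 all 3 exons were higher: exon 1 by 1.11 ± 0.12, exon 2 by 0.75 ± 0.11 and exon 3 by 0.72 ± 0.11. RPL41 therefore differed as a whole gene and RPL26 in 1 exon.

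Some other groups of short or abundant transcripts showed counts above that of all genes, without a test between lists. Of 31 proteasome shorter outer exons, 12 were higher and 0 lower by limma (19 and 1 at an unadjusted p under 0.05), such as PSMB3, at 16.7 to 41.0 normalized reads in libraries 1 to 8 and 3.91 to 16.4 in libraries 9 to 32. Of 59 exons of oxidative phosphorylation genes, 19 were higher and 2 lower, such as ATP5H of the ATP synthase, at 27.7 to 55.8 in libraries 1 to 8 and 3.34 to 15.5 in libraries 9 to 32. Of 13 exons of translation factors, 5 were higher, led by EEF1A1, whose exon had at most 6.99 in libraries 9 to 32 and passed the filter through libraries 1 to 8 alone, and of 20 presynaptic exons 6 were higher, led by synaptophysin (SYP), at 45.8 to 80.4 in libraries 1 to 8 and 3.13 to 25.03 in libraries 9 to 32. At an unadjusted p under 0.05 neither list had a lower exon, with 8 and 10 higher. Not all such groups stood out. Mitochondrial ribosomal protein genes had 5 higher (11.1%) and 1 lower of 45, near the 10.8% higher of all genes. Heat shock and chaperone genes had 3 higher and 0 lower of 22, and postsynaptic genes 3 higher and 1 lower of 19. The medians of these last 2 lists were 0.05 and 0.04, against 0.15 over all genes.

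Over all genes, 10.8% of tested shorter outer exons were higher. Of 29 shorter outer exons of snoRNA hosts, 7 were higher (24.1%) and 0 lower by limma (11 and 2 at an unadjusted p under 0.05), among them EIF4A2, EEF2 and HSPA8, while of 26 of miRNA hosts 1 was higher, or 3.85% (3 and 2 at an unadjusted p under 0.05, higher and lower). Of 139 exons of zinc finger genes, 6 were higher (4.32%) and 3 lower, a median of 0.00. None of these shares was tested against that of all genes. The share also moved with the gene's mean log2 value, which is not per length: 4.63% were higher where it was under 8, 12.2% from 9 to 10 and 27.1% at 12 or more. Low exons have less power in the test, so these shares cannot be read as sizes of effect; the medians were 0.08, 0.18 and 0.32.

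Among exons whose usage differed more than 4-fold, 67 were higher and 4 lower. Of the 67, 61 were shorter outer exons of 61 genes, 26 of them ribosomal protein genes. Besides the ribosomal protein genes they included MAPK9, COX6C, SYP, APOE and SF3B1, which were chosen after their values were seen. The COX6C exon had at most 4.35 in libraries 9 to 32, so it too passed the filter through libraries 1 to 8 alone. The 6 others were inner exons of POLA2 and RPL23A and longer outer exons of TMEM107, FTSJ3, RPS19 and XRCC6. The FTSJ3 exon contains the positions of the PSMC5 exon that is among the 61, so the same reads may count in both. The RPS19 exon had at most 8.63 in libraries 9 to 32 and passed the filter through libraries 1 to 8 alone.

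In POLA2 and TMEM107, first among the genes, the higher level lay in 1 exon each. In POLA2 the inner exon 14 of 18 (chromosome 11, 10320575 to 10320683, 109 bases) had 96.0, 141 and 178 normalized reads in libraries 1 to 8 against 5.34, 12.3 and 31.0 in libraries 9 to 32, a difference of 3.28 ± 0.24 without overlap. Exon 18, the other POLA2 exon high enough to be tested, differed by 0.11 ± 0.20, and the remaining exons had at most 9.85 in libraries 1 to 8 and 20.0 in libraries 9 to 32.

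In TMEM107 the outer exon 1 of 5 (chromosome 17, 8107468 to 8108324, 857 bases) had 379, 558 and 641 normalized reads in libraries 1 to 8 against 78.5, 113 and 154 in libraries 9 to 32, a difference of 2.14 ± 0.11. Exon 3 fell by 0.75 ± 0.22 in libraries 1 to 8, and exons 2, 4 and 5 had differences of -0.72, -0.45 and -0.31 that did not pass the test. In human the gene of the small nucleolar RNA U8, SNORD118, lies in the 3′ untranslated region of TMEM107, and in the RefSeq macaque table a snoRNA gene is the neighbour of TMEM107 on one side. Whether reads of that RNA fall in this exon was not tested.

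The ALDOA gene of the glycolytic enzyme aldolase A had an inner exon of 505 bases, exon 6 of 16 (chromosome 16, 27336598 to 27337102), at 146, 193 and 262 normalized reads in libraries 1 to 8 against 72.0, 95.4 and 135 in libraries 9 to 32. Its usage difference was 1.08 ± 0.08 without overlap in level. The 5 exons before it by position had medians of at most 20.4 in libraries 1 to 8 and 15.2 in libraries 9 to 32.

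Of the 6339 exons lower in level, 238 were shorter outer exons, 1064 longer outer exons and 5004 inner exons. The 5 smallest p among lower exon levels belonged to longer outer exons of VPS28, a subunit of the ESCRT-I sorting complex, and FKBP8 and to inner exons of PUF60, PLD3 and SSBP4. The VPS28 exon had 109, 132 and 165 normalized reads in libraries 1 to 8 against 182, 222 and 282 in libraries 9 to 32 (-0.74 ± 0.07). The PUF60 exon of 136 bases, in the gene of a U2-linked splicing factor, had 33.4, 38.7 and 57.5 in libraries 1 to 8 against 63.9, 88.8 and 108 in libraries 9 to 32, with a usage difference of -0.87 ± 0.09. An outer exon of CINP was lower in usage by 0.92 on the log2 scale, with overlapping levels. The lower usage of exons of RPL37A, RPS27 and TMEM107 was measured against a rest of the gene that holds their higher exon.

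Seen as 1 value per library, some measures of these exons set the 8 libraries apart, and a broader one did not. The shorter outer exons of ribosomal protein genes took 6.94, 7.02, 7.59, 7.59, 6.88, 7.36, 7.49 and 7.20% of all exon signal of those genes in libraries 1 to 8. In libraries 9 to 32 the lowest was 4.32%, the median 4.89% and the highest 5.54%. On either side of the dividing number, library 8 had 7.20% and library 9 had 5.24%. Shorter outer exons under 100 bases took 0.307 to 0.357% of all exon signal in libraries 1 to 8 (median 0.325%) and 0.184 to 0.268% in libraries 9 to 32 (median 0.218%). Neither measure overlapped, and neither was tested, since the exons were chosen with their values known. The share of signal in all shorter outer exons did overlap. It was 3.46 to 4.01% in libraries 1 to 8 (median 3.54%) and 2.81 to 3.85% in libraries 9 to 32 (median 3.26%). In libraries 9 to 16 the median of this broader share was also 3.54%. The share of the ribosomal protein exons had a median of 5.32% in libraries 9 to 16, 4.66% in 17 to 24 and 4.58% in 25 to 32.

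**Figure D5:**
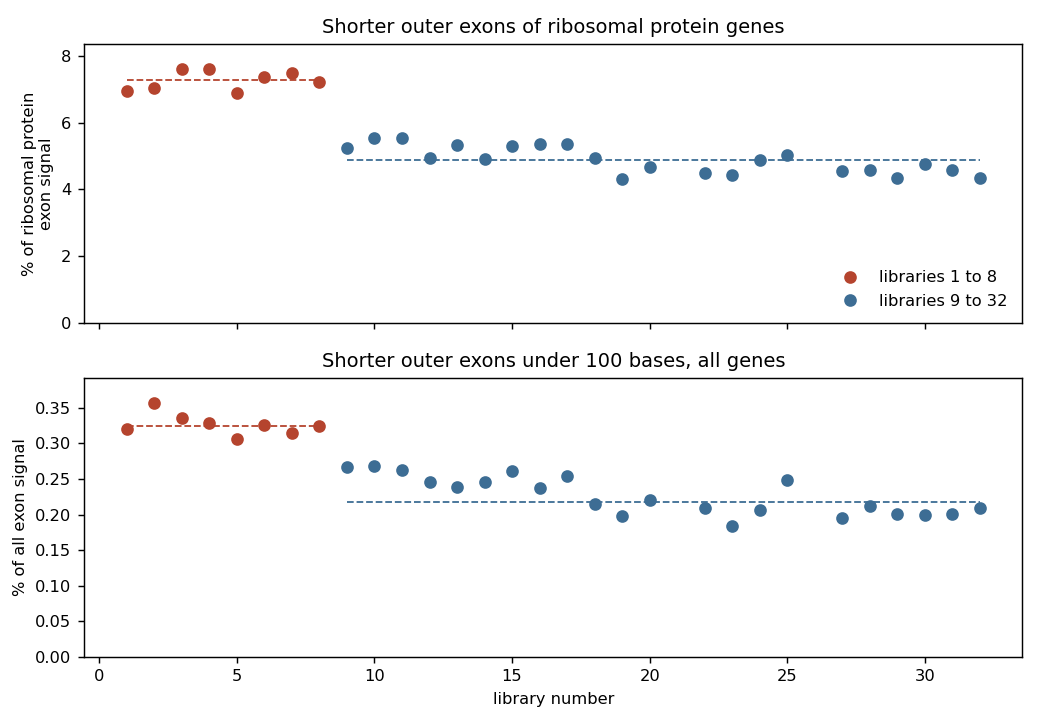
Share of signal in shorter outer exons (vertical axes, percent, from 0) by library number (horizontal axis), above for ribosomal protein genes as a share of their exon signal and below for exons under 100 bases as a share of all exon signal. Dashed lines are group medians. Libraries 1 to 8 lie at 6.88 to 7.59% above and 0.307 to 0.357% below, and libraries 9 to 32 at 4.32 to 5.54% and 0.184 to 0.268%.

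Broader library measures overlapped between the groups. The share of signal in single-exon genes was 1.17 ± 0.02% in libraries 1 to 8 and 1.18 ± 0.02% in libraries 9 to 32 (SD, n = 8 and 22). By the two-sided exact permutation test over 5852925 splits the adjusted p was 0.41. The share in genes with an exonic length under 1 kb was 2.73 ± 0.12% in libraries 1 to 8 and 2.75 ± 0.15% in libraries 9 to 32 (exact permutation, adjusted p = 0.66). Reads, in units of 1e6, numbered 7.78 ± 2.09 in libraries 1 to 8 and 9.59 ± 3.12 in libraries 9 to 32, and genes above 0 numbered 14154.5 ± 141 and 14279 ± 173 in these groups, each with an adjusted p of 0.28 over the 4 measures by the exact permutation test. Without cohort 4, the differences of -2.65 in reads (units of 1e6) and -154 in genes above 0 each had an adjusted p of 0.037 by this test over 203490 splits.

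Cohorts 5, 7a and 7b each held libraries of both groups. The sign of the mean difference within the cohort was that of the model for 2007, 2008 and 2004 of the 2010 called genes, and all 674 shorter outer exons called higher were above 0, with median differences in usage of 0.95, 1.07 and 1.04. These are the libraries on which the calls were made, so the counts describe where the difference lies and are no second test. TMEM107 differed by 1.63 in cohort 5 and by 1.64 in cohort 7a. The median difference of genes under 5 kb was -0.09 in cohort 5, -0.09 in cohort 7a and -0.11 in cohort 7b, and that of genes of 200 kb or more was 0.06, 0.06 and 0.07.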

How the data were processed

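Per the labels, RNA of area 32 was depleted of ribosomal RNA and sequenced from stranded libraries. Per the submitters' processing notes, CASAVA, FastQC, STAR 2.3.0e and edgeR were used. The sources used here do not give the genome build, the annotation, the counting program or the use of strand. Coordinates are as the deposited exon names give them. The deposited tables hold a signal: reads per gene or exon that the authors scaled to a common upper quartile, per the file headers. All values were whole multiples, within 0.01, of 1 step per library, which gave whole reads.

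The model was limma 3.58.1 in R 4.3.3 on log2(value + 1), with library set, drinking category and cohort as terms (22 residual degrees of freedom) and a mean trend for genes and exons. Exon usage had a variance per exon, and exon and rest of the gene both had to reach 10 in 6 libraries. Differences are therefore on the log2(value + 1) scale, which understates changes of low features. p-values were adjusted by Benjamini-Hochberg over all features tested, with a threshold of 0.05. edgeR 4.0.16, with its quasi-likelihood test on the recovered reads, was an alternative. On simulated counts with 12952 genes, the gene model recovered 77.3% of changes of 1.5-fold, 92.3% of 2-fold and 98.5% of 4-fold, and with no change it made 0 calls. The exon usage model, on 10355 simulated exons of 2000 genes, recovered 33.8%, 75.4% and 95.3% of these changes. False calls made up 6.38%, with the other exons of changed genes left out of the count, and there were 0 calls where nothing was changed. Each simulated feature was drawn independently, without effects of category, cohort or anything else shared within libraries beyond depth. The simulations therefore do not measure the false calls in the real data. Intervals and errors cover spread between libraries, 1 per animal.

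Members, lists and classes were chosen with earlier results of these data known. Named genes are the 10 of smallest p in each direction and up to 4 of smallest p in each list or length class, and named exons the 5 of smallest p in each direction for level and usage. Shorter outer exons, chromosome classes and genes that hold small RNA genes were added after values were seen. Of 15521 symbols, 14440 matched the name tables. A list of nuclear noncoding RNAs had no tested member, choroid and ependymal markers had 6 tested members (median -0.10) and blood markers 1 (CD8A, -0.22). The share of signal in last exons was not computed, as strand is not in the exon names.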

Additional observations from a re-analysis of the deposited data

Results flagged for a closer look

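In libraries 1 to 8, 114 values were examined for a library far from the other 7, by its gap to the nearest library over the whole range. Of these, 6 passed Dixon's limit for 8 libraries, and chance passes about 1 in 20. Library 2 had the highest share of signal in shorter outer exons, 4.01%, and was the highest in DEF8 (9.77 on the log2 scale) and UQCRC1 (11.00), both of which were called lower in libraries 1 to 8. Library 1 was the lowest in HIST3H2A (5.47), library 4 the lowest in GALNTL4 (9.51) and library 5 the lowest in VPS28 (9.71). No cause of these values was tested.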

How the results depend on the processing

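No paired analysis was possible because each animal gave 1 library, so no animal is in both groups. Cohort was kept as a model term. The count of 2010 genes was 3393 without category and cohort, 3462 with log2 depth, and 642, 1336 and 350 against libraries 9 to 16, 17 to 24 and 25 to 32 alone. Leaving out each of the 30 libraries in turn gave 1384 to 2248 genes. For exons, libraries 1 to 8 and library 15 were left out in turn, and the other libraries were not, which gave 6344 to 10555 exon levels, 2492 to 4531 exons in usage, 459 to 723 higher shorter outer exons and 38 to 46 of ribosomal protein genes. Against those 3 library sets alone, exon usage gave 90, 255 and 720 calls (85, 227 and 616 higher and 5, 28 and 104 lower, against 2143 and 2039 over all libraries) and 67, 156 and 402 higher shorter outer exons. For ribosomal protein genes the first set gave 22 of 65 tested and a filter of 30 gave 30 of 47 tested, against 46 of 66 in the main run. That filter gave 397 higher shorter outer exons over all genes. With log2 depth, usage gave 2724 calls and 419 such exons. Smaller sets hold fewer libraries, and the cause of the other changes was not tested. Without cohort 4, reads differed by -2.65 (units of 1e6) and genes above 0 by -154 (exact permutation, adjusted p = 0.037 each). edgeR called 2025 genes. The balance of usage calls turned to more lower than higher with a filter of 30 (2154 higher, 2516 lower), with log2 depth (1308, 1416) and with the filter on the mean (2090, 2114). Of 37 list medians, 19 changed sign under some alternative, among them oligodendrocyte markers (-0.27 to 0.53), choroid markers (-0.15 to 0.14) and cytosolic ribosomal proteins (-0.01 to 0.10). Of values for named genes, 97 of those with 1 library left out and 149 of those under other alternatives lost the call, and for named exons 8. Low exons limit the usage test, as 6265 of 14587 shorter outer exons could be tested.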
